A study of Homo sapiens with 18 samples.

Results

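The 9 genes described here, FLNA, FLNC, ACTN1, TAGLN, CNN2, TPM1, TPM2, MYL9 and ACTA2, encode proteins that cross-link, bundle, coat or contract actin filaments. They are 9 of 58735 genes in the count table, found by symbol, and all 9 were among the 17409 genes that passed the filter on low counts. The genes were selected on measured values of these data: FLNC was nearly absent in one of the cell lines. Their differences between the lines are therefore given as a description, with no test.

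RNA was sequenced from a pair of human keratinocyte lines, immortal HaCaT skin cells and TIGK, a gingival (gum) line immortalised with telomerase. The study looked for expression differences linked to the better healing ability of oral cells. Each line was harvested without a scratch (0 h), 6 h after a scratch of the culture and 24 h after it, which gave 6 groups of 3 libraries. Every library received 1 µg of total RNA. Each tissue is represented by 1 line, so a difference between lines cannot be told apart from a difference between those cultures. Unscratched cells were not followed over the same hours, so the scratch and the hours of culture cannot be told apart either. The 3 libraries of a group are lettered A, B and C, and values are given in that order.

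The 18 libraries held 14238090 to 25011331 counted reads. The summed level of 8 keratinocyte markers, among them KRT5, KRT14 and TP63, lay between 32600 and 43300 CPM (counts scaled to the library's size) in every library. In TIGK that sum was 32600 to 34300 CPM at 0 h, 37900 to 38800 CPM at 6 h and 39400 to 43300 CPM at 24 h. In TIGK the libraries lettered C of 0 h and 6 h stood apart, with 26246 and 25161 genes that had a count against 21164 to 22799 in the other libraries, and with 5.08% and 4.98% mitochondrial reads against 5.84% to 8.08%. They were also the deepest libraries, with 25011331 and 18039684 reads against 14238090 to 17264601. The part of depth in their gene numbers was not tested. Of 8 smooth muscle markers, MYOCD was at 0 in all 6 groups, and DES and CNN1 were at 0 in HaCaT at 6 h and 24 h. The summed smooth muscle markers lay between 88.2 and 142 CPM in HaCaT and between 136 and 240 CPM in TIGK. They were lowest at 24 h in HaCaT (88.2 to 92.2 CPM) and highest at 6 h in TIGK (208 to 240 CPM). Of 8 striated muscle markers, MYOG and MYH7 were at 0 in all groups, and the sum lay between 11.8 and 30.9 CPM. Summed fibroblast markers lay between 21.0 and 40.8 CPM in HaCaT and between 237 and 435 CPM in TIGK. In TIGK at 24 h they reached 391 to 435 CPM, with COL1A2 and THY1 at 0. Fibroblast markers thus moved with the line and, in both lines, with the 24 h samples, and their part in the results on FLNC, TPM2, MYL9 and ACTA2 was not tested. The summed smooth muscle markers also moved with time in both lines, and the summed keratinocyte markers did in TIGK. Single smooth muscle markers did not all follow their sum. By the edgeR test described below, SMTN alone was called in TIGK at 6 h, as a rise. At 24 h against 0 h MYH11 and SYNPO2 rose in TIGK, and CNN1 and SMTN fell in HaCaT. MYH11 was higher in HaCaT than in TIGK at each time, against the direction of the sum. The part of those markers in the results was not tested either.

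Actin filaments in epithelial cells are built from the cytoplasmic actins. Filamins join crossing filaments into a flexible mesh, and alpha-actinins bundle filaments and anchor them at adhesions. Tropomyosins lie along the filament and govern which other proteins can bind it. Myosin II pulls on the filaments when its regulatory light chain is phosphorylated, while calponins and transgelins bind and stabilise the filament. Many of these genes are textbook targets of serum response factor (SRF), which binds the CArG box and is driven by the cofactors MRTFA and MRTFB when the pool of free actin falls. FLNC, TAGLN, ACTA2, TPM2 and MYL9 are best known from muscle and contractile mesenchymal cells.

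Because SRF sites near the start are a known feature of this gene family, the bases before the start were read for 7 of the 9 members from RefSeq (GRCh38.p14). TAGLN and MYL9 were not matched. The table held 4 start sites for ACTN1, 2 each for ACTA2 and TPM2 and 1 each for FLNA, FLNC, TPM1 and CNN2. The motifs searched in the 250 bases before each start were the CArG box (CC, then 6 bases that are each A or T, then GG, whose reverse complement has the same form), the CArG box with 1 substitution, and the core of the MCAT element bound by TEAD factors (CATTCC, or GGAATG on the other strand). Among 35116 promoters of that length in the same table, 1.16% held a CArG box, 5.96% held one with 1 substitution and 11.9% held the MCAT core. The windows shown are those with a match, followed by the longer TPM2 window, which had none. Matches are in capitals, annotated exon bases are left out, and each reads 5′ to 3′ on the strand of the gene.
FLNC (chr7:128830156-128830376, plus strand): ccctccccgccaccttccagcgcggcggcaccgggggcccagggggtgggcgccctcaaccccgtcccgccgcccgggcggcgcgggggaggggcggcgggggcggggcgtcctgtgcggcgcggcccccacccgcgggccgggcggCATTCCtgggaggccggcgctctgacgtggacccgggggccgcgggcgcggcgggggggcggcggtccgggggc
FLNA (chrX:154374639-154374884, minus strand): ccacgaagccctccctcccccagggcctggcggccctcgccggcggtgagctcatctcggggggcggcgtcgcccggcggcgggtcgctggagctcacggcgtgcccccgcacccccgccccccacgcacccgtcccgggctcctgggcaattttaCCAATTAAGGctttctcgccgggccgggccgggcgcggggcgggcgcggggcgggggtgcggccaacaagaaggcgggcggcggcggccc
CNN2 (chr19:1026358-1026580, plus strand): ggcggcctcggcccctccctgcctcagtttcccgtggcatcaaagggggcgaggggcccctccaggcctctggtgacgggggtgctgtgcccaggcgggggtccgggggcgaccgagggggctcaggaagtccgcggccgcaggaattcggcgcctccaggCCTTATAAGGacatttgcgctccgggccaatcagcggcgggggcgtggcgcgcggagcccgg
ACTN1 (chr14:68977655-68977816, minus strand): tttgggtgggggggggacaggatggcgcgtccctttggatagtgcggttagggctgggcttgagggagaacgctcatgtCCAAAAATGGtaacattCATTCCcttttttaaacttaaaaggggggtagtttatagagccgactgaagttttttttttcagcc
ACTA2 (chr10:88952774-88953023, minus strand): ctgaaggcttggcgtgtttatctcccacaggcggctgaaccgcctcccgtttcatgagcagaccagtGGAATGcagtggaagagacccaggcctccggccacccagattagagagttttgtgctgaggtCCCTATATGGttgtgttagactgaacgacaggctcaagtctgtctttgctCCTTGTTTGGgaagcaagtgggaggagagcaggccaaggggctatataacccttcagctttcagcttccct
TPM2 (chr9:35690122-35690306, minus strand): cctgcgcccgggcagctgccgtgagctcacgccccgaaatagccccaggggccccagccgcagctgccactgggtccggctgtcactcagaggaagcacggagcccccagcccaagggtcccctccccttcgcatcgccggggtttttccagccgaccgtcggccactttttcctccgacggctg

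FLNA held a CArG box that begins 94 bases before the start, and CNN2 held one at 89 bases. ACTN1 held one at 171 bases before its start at 68977566, next to an MCAT core at 154 bases. ACTA2 held a pair of CArG boxes with 1 substitution, at 121 and 71 bases before the start at 88952773, and an MCAT core at 183 bases. FLNC held an MCAT core at 103 bases and no CArG box. The other windows of ACTN1, ACTA2, TPM1 and TPM2 held none of these letters. A match is a description of the letters only, and no binding was measured.

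Levels are given as CPM, the read count scaled by library size with TMM factors, and group values are mean ± SD (n = 3). Responses within a line were tested with edgeR, and called genes are those with a Benjamini-Hochberg adjusted p under 0.05 over all 17409 genes. To compare genes with each other, the authors' FPKM values are used, since these are also scaled by gene length. In unscratched TIGK cells the order by FPKM was FLNA at 203 ± 9.40, ACTN1 at 70.6 ± 3.99, CNN2 at 51.2 ± 0.806, TPM2 at 50.2 ± 6.80, FLNC at 37.9 ± 1.73, MYL9 at 23.2 ± 2.51, TPM1 at 10.8 ± 0.418, TAGLN at 5.85 ± 0.960 and ACTA2 at 0.787 ± 0.165. Among neighbours in that order, only CNN2 and TPM2 had ranges of mean ± SD that overlapped. Unscratched HaCaT cells gave another order by FPKM: FLNA at 203 ± 5.70, CNN2 at 83.7 ± 0.744, ACTN1 at 61.4 ± 3.17, TAGLN at 7.17 ± 1.05, MYL9 at 4.62 ± 0.565, TPM1 at 3.09 ± 0.0309, TPM2 at 2.38 ± 0.524, ACTA2 at 0.435 ± 0.0880 and FLNC at 0.117 ± 0.00179. FLNA, which links actin to membrane receptors, led both lines at nearly the same level, whereas FLNC was in the middle of the order in TIGK and last in HaCaT.

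**Figure D1:**
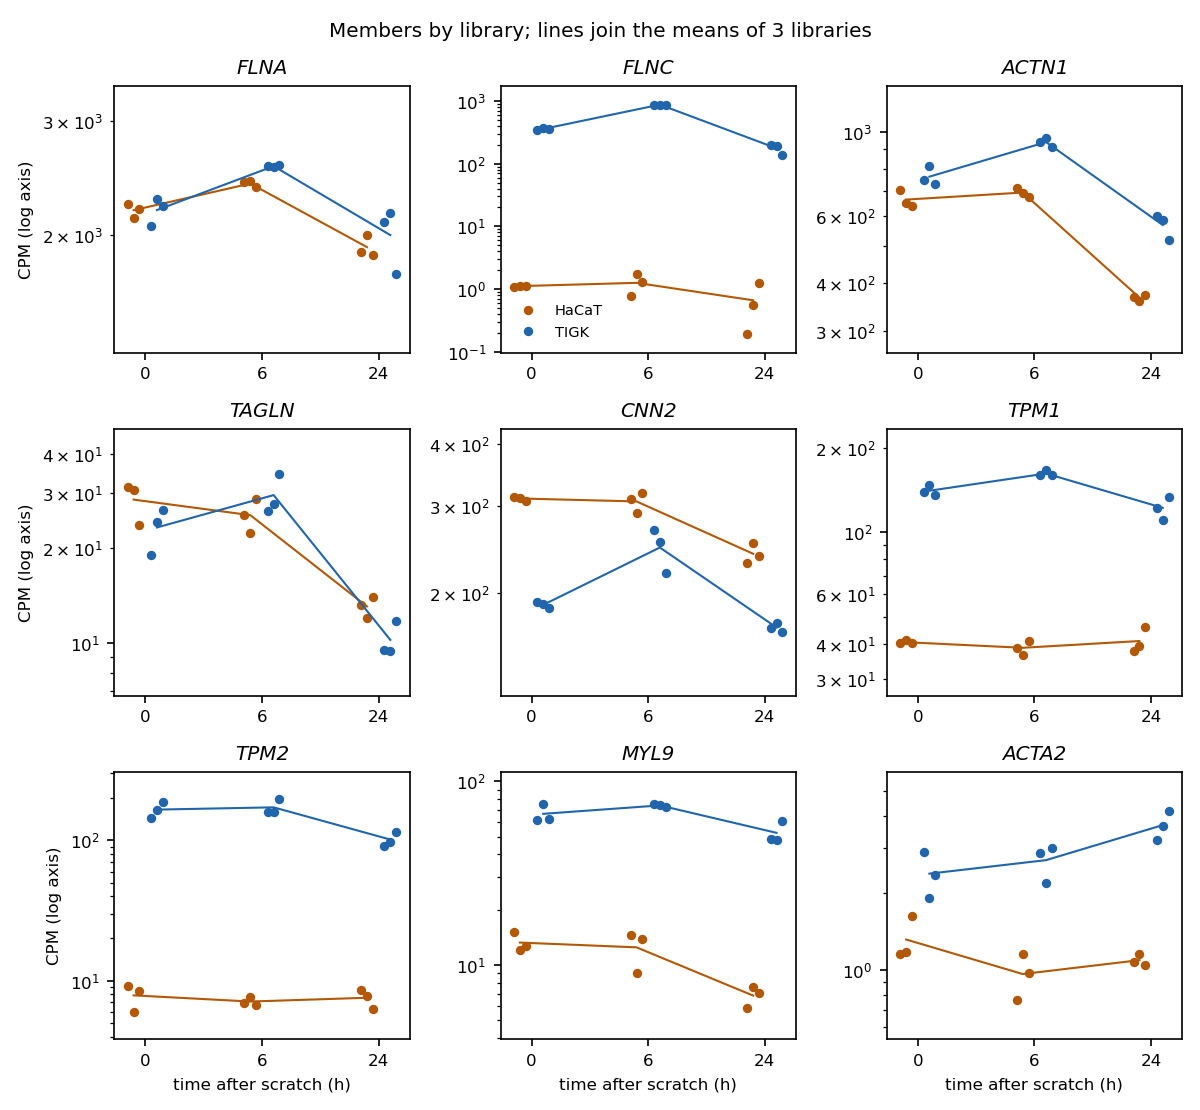
Level of each member in CPM (log axis, own range per panel) at 0, 6 and 24 h after the scratch in HaCaT (orange) and TIGK (blue). Each point is 1 library and lines join the means of 3 libraries. FLNC stands near 1 CPM in HaCaT and between 138 and 876 CPM in TIGK, where it is highest at 6 h.

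The filamins showed the widest range. FLNC, the muscle-type filamin (ENSG00000128591, chromosome 7, 128830377 to 128859274, plus strand, hg38), had only 3 to 28 reads in any HaCaT library. Its level in HaCaT was 1.09, 1.11 and 1.12 CPM at 0 h, 0.762, 1.71 and 1.28 CPM at 6 h, and 0.191, 0.546 and 1.24 CPM at 24 h, so the times overlapped. In TIGK it was 345, 377 and 352 CPM at 0 h, 876, 875 and 874 CPM at 6 h, and 199, 191 and 138 CPM at 24 h, and no library of one time reached those of another. On the fitted scale FLNC was 320-fold, 692-fold and 265-fold lower in HaCaT than in TIGK at 0, 6 and 24 h. The 24 h fold rested on 3, 8 and 19 HaCaT reads: it was 476-fold without the letter C library of HaCaT and 194-fold without the letter A library, leave-outs chosen after seeing the data. Within TIGK, FLNC rose 2.45-fold from 0 h to 6 h (log2 fold change 1.29, SE 0.124, adjusted p = 2.5e-07). By 24 h it had fallen 2.03-fold below its 0 h level (log2 fold change -1.02, SE 0.12, adjusted p = 7.3e-07) and 4.97-fold below its 6 h level (adjusted p = 1.1e-12). In HaCaT its 24 h response of -0.75 (SE 0.424) was not called (adjusted p = 0.19). That value rested on the letter C library of HaCaT at 24 h, with 19 reads against 3 and 8: without it the response was -1.60 (adjusted p = 0.016, range over 14 alternatives 0.016 to 0.71). From 6 h to 24 h in HaCaT the FLNC value was -0.93, which edgeR did not call (adjusted p = 0.083). DESeq2 (0.024) and edgeR with no filter (0.017) called that fall. So did fits without the letter A library of 6 h (0.034) or the letter C library of 24 h (0.0053), with a range of 0.0053 to 0.6 over 14 alternatives.

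FLNA (ENSG00000196924, chromosome X, 154348524 to 154374638, minus strand), the filamin found in most cells, had 2235, 2125 and 2189 CPM at 0 h, 2413, 2421 and 2371 CPM at 6 h and 1881, 1996 and 1863 CPM at 24 h in HaCaT. The TIGK libraries had 2066, 2268 and 2219 CPM at 0 h, 2552, 2548 and 2567 CPM at 6 h and 2092, 2159 and 1739 CPM at 24 h. Both lines were highest at 6 h, and the lines overlapped at 0 h and 24 h. FLNA fell from 6 h to 24 h in HaCaT (log2 fold change -0.33, SE 0.0709, adjusted p = 7e-04) and in TIGK (-0.36, SE 0.0709, adjusted p = 3e-04). Against 0 h, the fall in HaCaT was -0.19 (SE 0.0708, adjusted p = 0.043). That call was lost with DESeq2 (0.054), with RLE scaling (0.076) and in limma on log2(FPKM + 1) (0.081) and on log2(FPKM + 0.1) (0.085). It was also lost when any 1 of 5 of its 6 libraries was left out, and the adjusted p ranged from 0.0012 to 0.13 over 14 alternatives. The 6 h values of 0.14 in HaCaT and 0.23 in TIGK were not called (adjusted p = 0.70 and 0.084), although DESeq2 (0.019) and the fit with the letters as pairs (0.047) called the latter. The letters met the mark for pairing between 0 h and 6 h in TIGK. Unlike letters A and B also correlated there (0.302 and 0.242), so the mark does not show that the letters are pairs.

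Of the 50-base windows of FLNC, 3.46% occur in other genes, mostly in AC025594.1, and for FLNA that share was 0.00893%, so few reads could be shared between FLNC and FLNA. The share was larger for ACTA2 (26%), TPM1 (20%, in 489 other genes), TAGLN (9.63%), CNN2 (8.51%) and ACTN1 (4.24%, in 249 other genes). It was 0 for TPM2 and MYL9. How many reads were in fact shared was not tested.

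ACTN1 (ENSG00000072110, chromosome 14, 68874143 to 68979440, minus strand), an alpha-actinin of adhesions and stress fibres, fell in both lines by 24 h. HaCaT libraries held 701, 651 and 638 CPM at 0 h, 710, 692 and 675 CPM at 6 h and 369, 360 and 373 CPM at 24 h. The TIGK libraries held 748, 811 and 727 CPM, then 941, 964 and 911 CPM, then 599, 588 and 520 CPM. From 0 h to 24 h the fall was 1.81-fold in HaCaT (log2 fold change -0.85, SE 0.0690, adjusted p = 8.4e-10) and 1.34-fold in TIGK (-0.42, SE 0.0684, adjusted p = 3.5e-05). The response differed between lines by 0.43 (TIGK minus HaCaT, log2, SE 0.0967, adjusted p = 0.0032), a call that held in all 20 alternatives. At 6 h ACTN1 had risen 1.23-fold in TIGK (log2 fold change 0.30, SE 0.0682, adjusted p = 0.01). That call was lost without the letter C library of 0 h (0.057), without the letter B library of 6 h (0.068) and in a fit of the TIGK libraries alone (0.09), with a range of 0.00017 to 0.09 over 14 alternatives. From 6 h to 24 h it fell by 0.91 in HaCaT (adjusted p = 1.8e-10) and by 0.72 in TIGK (adjusted p = 1.1e-08) on the log2 scale. ACTN4, the other alpha-actinin of non-muscle cells, also fell in HaCaT at 24 h (-0.30, adjusted p = 0.00066), and ACTN1 took 38.2% ± 1.31 of the family's FPKM at 0 h and 29.6% ± 0.231 at 24 h there.

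TAGLN (ENSG00000149591, chromosome 11, 117199321 to 117204782, plus strand) encodes transgelin, an actin-bundling protein of smooth muscle. It stood at 31.3, 30.7 and 23.7 CPM at 0 h, 25.5, 22.4 and 28.6 CPM at 6 h and 13.15, 12 and 14.03 CPM at 24 h in HaCaT. In TIGK it stood at 19.1, 24.3 and 26.6 CPM, then 26.4, 27.8 and 34.5 CPM, then 9.50, 9.41 and 11.8 CPM. The lines overlapped at 0 h and 6 h, and in each line every 24 h library lay below all earlier ones. The fall from 0 h to 24 h was 2.19-fold in HaCaT (log2 fold change -1.13, SE 0.150, adjusted p = 2.1e-06) and 2.29-fold in TIGK (-1.19, SE 0.153, adjusted p = 1.5e-06). The difference between those responses was -0.07 (SE 0.213, adjusted p = 0.90). TAGLN also fell from 6 h to 24 h, by 0.96 in HaCaT (adjusted p = 1.5e-05) and by 1.53 in TIGK (adjusted p = 2.4e-08) on the log2 scale. Its paralog TAGLN2, which held 96.5% ± 0.320 of the transgelin FPKM in HaCaT at 0 h, was not called in any response. PCSK7, on the opposite strand, overlaps 11.4% of the exon bases of TAGLN and went from 43.9 ± 4.66 to 34.8 ± 1.53 CPM in HaCaT and from 46.1 ± 5.24 to 34.8 ± 0.849 CPM in TIGK between 0 h and 24 h. Whether counting used strand is not given in the sources used here, so reads of that overlap cannot be told apart.

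CNN2 (ENSG00000064666, chromosome 19, 1026581 to 1039068, plus strand), the calponin of non-muscle cells, was the member whose HaCaT libraries lay above those of TIGK at every time. HaCaT held 313, 312 and 307 CPM at 0 h, 310, 290 and 319 CPM at 6 h and 231, 252 and 238 CPM at 24 h. TIGK held 192, 190 and 187 CPM, then 268, 254 and 220 CPM, then 171, 175 and 167 CPM. At 6 h CNN2 had risen 1.304-fold in TIGK (log2 fold change 0.38, SE 0.0715, adjusted p = 0.0016), where in HaCaT the value was -0.02 (SE 0.0711, adjusted p = 0.99). The difference of those responses, 0.40 (SE 0.101), was not called (adjusted p = 0.062). DESeq2 (0.003), a fit without the TIGK 6 h letter C library (0.0077) and the fit with the letters as pairs (0.035) did call it, within a range of 0.003 to 0.20 over 20 alternatives. By 24 h CNN2 had fallen in HaCaT (-0.37, SE 0.0714, adjusted p = 2.5e-04), and in TIGK the value was -0.15 (SE 0.0718, adjusted p = 0.11). From 6 h to 24 h it fell by 0.35 in HaCaT (adjusted p = 3.7e-04) and by 0.54 in TIGK (adjusted p = 2.2e-06) on the log2 scale. CNN2 made up 90.3% ± 0.517 of the calponin FPKM in HaCaT and 67.1% ± 3.27 in TIGK at 0 h, with CNN3 as nearly all of the rest. CNN1, the smooth muscle calponin, had 0.188 ± 0.00341 CPM in HaCaT at 0 h and no read there later, and 1.78 ± 0.732 CPM in TIGK at 0 h.

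Both tropomyosins among the members were higher in TIGK. TPM2 (ENSG00000198467, chromosome 9, 35681992 to 35690121, minus strand), known as beta-tropomyosin, had 9.23, 5.94 and 8.42 CPM at 0 h, 6.92, 7.64 and 6.76 CPM at 6 h and 8.58, 7.78 and 6.33 CPM at 24 h in HaCaT. In TIGK it had 144, 164 and 189 CPM, then 160, 159 and 197 CPM, then 90.96, 97.83 and 115 CPM. It was 21.1-fold, 24.2-fold and 13.4-fold lower in HaCaT at 0, 6 and 24 h. TPM2 fell 1.64-fold in TIGK from 0 h to 24 h (log2 fold change -0.71, SE 0.119, adjusted p = 5.2e-05) and by 0.76 from 6 h to 24 h (adjusted p = 1.7e-05), and in HaCaT the 24 h value was -0.05 (SE 0.169, adjusted p = 0.86). The lines' 24 h responses differed by -0.66 (TIGK minus HaCaT, SE 0.207, adjusted p = 0.036). That call was lost in 7 of 12 fits that left out 1 library and in the fit without both TIGK letter C libraries that stand apart (0.052). It was also lost in limma on log2(FPKM + 0.1) (0.052), with a range of 0.00075 to 0.13 over 20 alternatives.

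TPM1 (ENSG00000140416, chromosome 15, 63042632 to 63071915, plus strand), alpha-tropomyosin, had 40.3, 41.1 and 40.1 CPM at 0 h, 38.5, 36.5 and 41.0 CPM at 6 h and 37.6, 39.2 and 45.9 CPM at 24 h in HaCaT. In TIGK it had 139, 147 and 136 CPM, then 161, 167 and 160 CPM, then 123, 111 and 134 CPM. It fell in TIGK from 6 h to 24 h (log2 fold change -0.41, SE 0.0808, adjusted p = 2.8e-04) and no other response of TPM1 was called. The 24 h value against 0 h in TIGK was -0.20 (adjusted p = 0.057). It was called without the letter C library of 24 h (0.017) and with the letters as pairs (0.048), with a range of 0.017 to 0.26 over 14 alternatives. TPM3 and TPM4, the tropomyosins of most non-muscle cells, led the family in HaCaT, where TPM3 made up 53.8% ± 2.21, TPM4 42.7% ± 1.99 and TPM2 1.52% ± 0.335 of its FPKM at 0 h. In TIGK at 0 h TPM4 led with 41.5% ± 1.85, and TPM3 at 26.9% ± 1.75 and TPM2 at 26.0% ± 2.77 lay within each other's spread. TPM3 and TPM4 both fell by 24 h in each line, TPM4 by 0.63 in HaCaT (adjusted p = 1.9e-08) and by 0.33 in TIGK (adjusted p = 0.00016) on the log2 scale. TPM1-AS overlaps 16.1% of the exon bases of TPM1 and stood at 0.576 ± 0.352 CPM or less in every group.

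MYL9 (ENSG00000101335, chromosome 20, 36541484 to 36551447, plus strand) encodes a regulatory light chain of myosin II. In HaCaT it had 15.06, 12.01 and 12.73 CPM at 0 h, 14.5, 9.11 and 13.8 CPM at 6 h and 5.85, 7.57 and 7.05 CPM at 24 h. In TIGK it had 62.0, 75.0 and 62.8 CPM, then 75.7, 74.1 and 72.2 CPM, then 48.5, 47.7 and 61.2 CPM. MYL9 was 5.02-fold, 5.92-fold and 7.69-fold lower in HaCaT at 0, 6 and 24 h. It fell 1.95-fold in HaCaT from 0 h to 24 h (log2 fold change -0.96, SE 0.162, adjusted p = 5.5e-05). In TIGK the fall was 1.27-fold (-0.34, SE 0.129, adjusted p = 0.043), a call lost in limma (0.071 and 0.11 with pseudocounts of 1 and 0.1) and without the letter B library of 0 h (0.21) or the letter A (0.15) or B (0.16) library of 24 h, with a range of 0.006 to 0.21 over 14 alternatives. From 6 h to 24 h it fell by 0.87 in HaCaT (adjusted p = 1.4e-04) and by 0.50 in TIGK (adjusted p = 0.0036) on the log2 scale. The lines' 24 h responses differed by 0.62 (TIGK minus HaCaT, SE 0.207, adjusted p = 0.049). That call was lost in 8 of 12 fits that left out 1 library and without both TIGK letter C libraries that stand apart (0.082). It was also lost with RLE scaling (0.054) and in limma (0.17 and 0.099 with pseudocounts of 1 and 0.1), and the adjusted p ranged from 0.02 to 0.17 over 20 alternatives. Of the 3 light chains summed by FPKM, MYL9 made up 5.65% ± 0.854 in HaCaT and 19.4% ± 1.69 in TIGK at 0 h, and MYL12B, a near-identical relative of MYL12A, held 72.8% ± 2.01 and 61.9% ± 0.904.

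**Figure D2:**
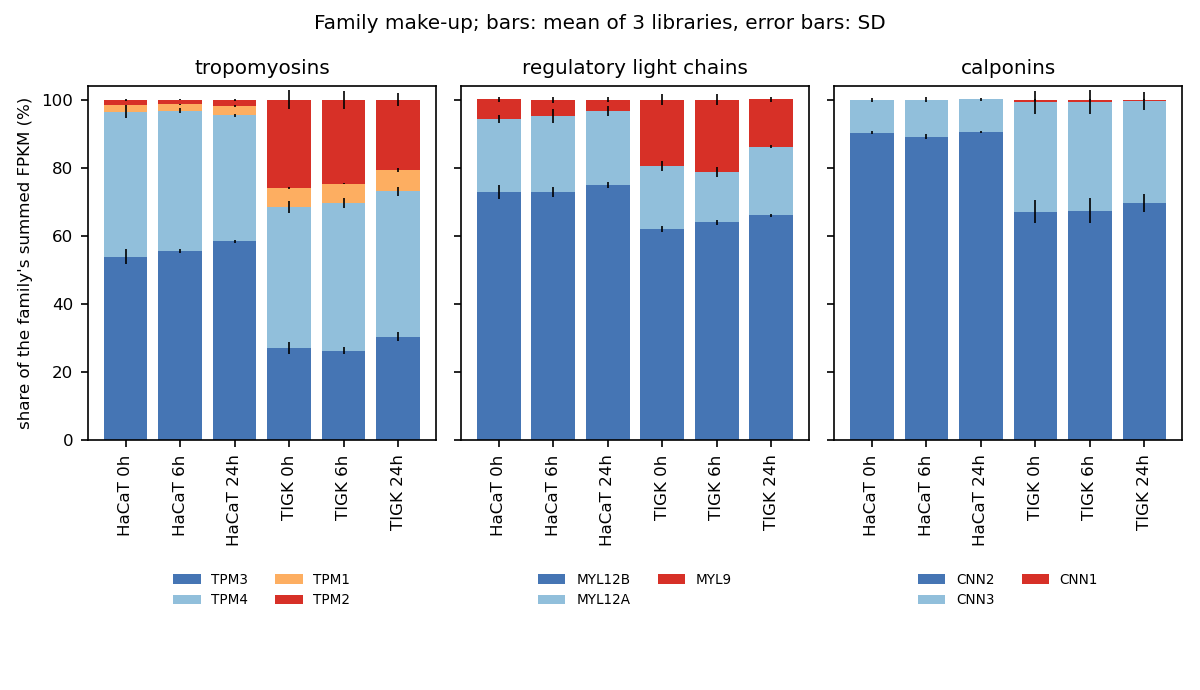
Share of each paralog in the summed FPKM of its family (%), by line and time. Stacked bars are means of 3 libraries, and error bars are the SD of the segment they top. TPM2 and MYL9, drawn in red, fill larger shares of their families in TIGK than in HaCaT.

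ACTA2 (ENSG00000107796, chromosome 10, 88935074 to 88991339, minus strand), the smooth muscle alpha-actin that marks myofibroblasts, was scarce in both lines. HaCaT libraries held 1.15, 1.18 and 1.62 CPM at 0 h, 0.762, 1.16 and 0.974 CPM at 6 h and 1.08, 1.16 and 1.04 CPM at 24 h. TIGK libraries held 2.89, 1.90 and 2.35 CPM, then 2.86, 2.19 and 3.00 CPM, then 3.21, 3.66 and 4.17 CPM. Every TIGK library lay above every HaCaT library of its time, and ACTA2 was the member whose 24 h libraries lay above those of 0 h and 6 h in TIGK. Its 24 h response there, 0.63 (SE 0.282), was not called by edgeR (adjusted p = 0.092). It was called by limma on log2(FPKM + 1) (0.0068) and on log2(FPKM + 0.1) (0.03), with a range of 0.0068 to 0.36 over 14 alternatives. ACTA2 made up 0.0133% ± 0.00271 of the actin FPKM in HaCaT and 0.0265% ± 0.00642 in TIGK at 0 h, where ACTB and ACTG1, the cytoplasmic actins, were nearly all of it. Exons of FAS on the other strand overlap 12.8% of the exon bases of ACTA2, and FAS stood at 8.13 to 15.9 CPM in the group means, above ACTA2 in each. ACTA2-AS1 overlaps 17.3% and stood at 0.163 CPM or less. ACTA2 values of this size could hold reads from those overlaps, so they are uncertain.

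Over the members, no gene was called in HaCaT from 0 h to 6 h: 0 of 9 passed with edgeR, 0 had an unadjusted p under 0.05 and DESeq2 called 0. Of all genes tested, 0.138% rose and 0.0632% fell in that comparison. In TIGK 3 of 9 rose by 6 h (FLNC, CNN2, ACTN1) and 0 fell, where 2.50% of all genes rose and 1.12% fell. By 24 h, 5 of 9 had fallen in HaCaT (FLNA, TAGLN, ACTN1, MYL9, CNN2) where 15.9% of all genes fell and 15.5% rose. In TIGK 5 of 9 had fallen (FLNC, TAGLN, TPM2, ACTN1, MYL9) where 17.0% of all genes fell and 15.3% rose. No member was called by edgeR as rising at 24 h against 0 h in either line, whereas limma called ACTA2 up in TIGK (0.0068 and 0.03 with pseudocounts of 1 and 0.1). From 6 h to 24 h, 5 of 9 fell in HaCaT, where 18.1% of all genes fell and 17.6% rose, and 8 of 9 fell in TIGK, all but ACTA2, where 18.9% fell and 17.8% rose. The comparisons within a line share libraries, so these counts are not independent. Median log2 fold changes of the members were -0.37 in HaCaT and -0.34 in TIGK at 24 h against 0 h, and the medians over all genes were 0.00359 and -0.0118. For the 6 h response in TIGK the medians were 0.23 for the members and -0.0179 for all genes. In these bulk samples a smaller share of cells that make a transcript and less of it per cell cannot be told apart.

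**Figure D3:**
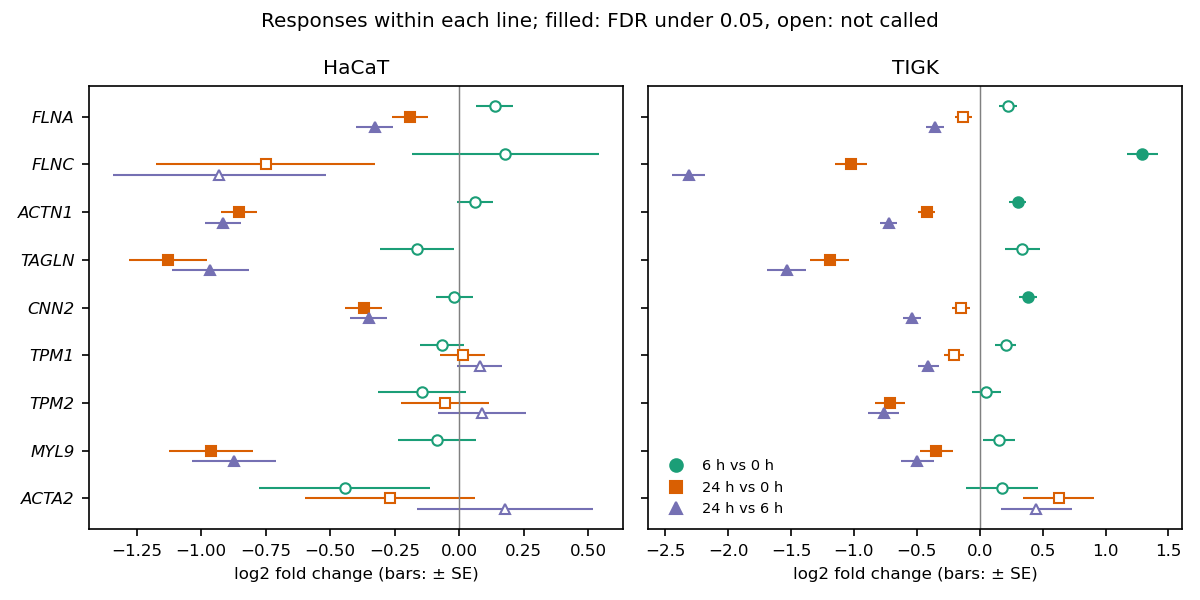
Log2 fold change ± SE of the 9 members within HaCaT (left) and TIGK (right) for 6 h against 0 h (circles), 24 h against 0 h (squares) and 24 h against 6 h (triangles). Filled marks passed the false discovery rate, open marks did not. FLNC in TIGK spans 1.29 at 6 h against 0 h to -2.31 at 24 h against 6 h.

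The 6 h response itself was called different between lines for 0 of 9 members, 5 of which had an unadjusted p under 0.05, and DESeq2 called 2 (FLNC and CNN2). With edgeR 0.534% of all genes were called as responding more toward a rise in TIGK and 0.218% less. No share of all genes is given for the unadjusted p or for DESeq2, so those counts have no background beside them. For FLNC that difference was 1.11 (SE 0.389, adjusted p = 0.26, range over 20 alternatives 0.00044 to 0.47), with few HaCaT reads behind it. For the 24 h response 3 of 9 were called, ACTN1 and MYL9 upward in TIGK relative to HaCaT and TPM2 downward, where 6.45% and 7.07% of all genes were called in those directions. For FLNC the 24 h difference was -0.27 (SE 0.467, adjusted p = 0.78) and was not called. It was called with limma on log2(FPKM + 1) (-0.93, adjusted p = 0.00031), within a range of 0.00031 to 0.91 over 20 alternatives.

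Around the members, lists of 89 related genes were examined, of which 87 were matched and 80 were tested. In TIGK at 6 h 13 of the 80 rose and MYLK, the myosin light chain kinase, fell (log2 fold change -0.50, adjusted p = 0.016), where 2.50% of all genes rose and 1.12% fell. The largest rises were ELK3, an ETS partner of SRF (0.70, adjusted p = 0.00053), RHOB, a small GTPase (0.56, adjusted p = 0.001), FHL2, a LIM protein of adhesions (0.52, adjusted p = 0.0027), and FBLIM1, a filamin-binding adaptor (0.46, adjusted p = 0.00019). In HaCaT at 6 h 0 of the 80 were called by edgeR, where 0.138% of all genes rose and 0.0632% fell. Of the 80, 9 had an unadjusted p under 0.05 and DESeq2 called 2, with no share of all genes given for either.

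By 24 h in HaCaT 13 of the 80 rose and 24 fell, where 15.5% of all genes rose and 15.9% fell, so the share that rose was near that of all genes. The 13 include ARHGAP24 (1, 0 and 0 reads at 0 h, 5, 14 and 2 at 24 h) and FHL1 (5, 3 and 0, then 4, 15 and 7). Both rest on few reads, and both were also called from 6 h to 24 h. Among 16 tested paralogs of the members 0 rose and 8 fell, including ACTG1 (4089 ± 121 to 2222 ± 154 CPM, log2 fold change -0.88, adjusted p = 6.4e-09) and ACTB (6942 ± 239 to 4325 ± 324 CPM, -0.68, adjusted p = 1e-07). The 8 also include CNN1, which went from 3 reads in each 0 h library to 0. Of 25 stress fibre and focal adhesion genes 10 fell, among them PDLIM7 (-0.69, adjusted p = 1.7e-06), VCL and ZYX, and 4 rose, among them FERMT2, a kindlin that activates integrins (1.13, adjusted p = 3.4e-07), and PALLD, a scaffold of actin bundles (0.81, adjusted p = 2.7e-05). Of 23 genes of myosin II and its control 7 rose, led by RND3, which opposes RhoA signalling (38.4 to 99.5 CPM, 1.37, adjusted p = 7.6e-11), and MYH14, a myosin II heavy chain (0.74, adjusted p = 4.3e-07), and 3 fell. ITGB1, an integrin chain and filamin partner, fell by 0.78 on the log2 scale (adjusted p = 4.8e-09). From 6 h to 24 h in HaCaT 19 of the 80 rose and 28 fell, where 17.6% of all genes rose and 18.1% fell, with TLN2 (-1.42, adjusted p = 3.5e-07) and LIMA1 (-0.96, adjusted p = 2.1e-10) among those that fell most.

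In TIGK at 24 h 17 of the 80 rose and 17 fell, where 15.3% of all genes rose and 17.0% fell, so both shares were near those of all genes. The genes that fell include ILK, which rests on few reads (6, 12 and 65 at 0 h, 6, 1 and 1 at 24 h). Of 16 tested paralogs 4 fell (ACTB, CNN3, TPM3, TPM4) and 0 rose. CSRP1, a LIM protein of smooth muscle and stress fibres, fell by 0.88 (208 to 113 CPM, adjusted p = 6.3e-10), PDLIM7 by 0.59 (adjusted p = 1.4e-05), TLN2 by 0.55 (adjusted p = 0.0014) and ITGB1 by 0.51 (adjusted p = 4e-06) on the log2 scale. DIAPH3, a formin, rose by 1.32 (adjusted p = 2.7e-06), PDLIM1 by 0.75 (adjusted p = 1e-08), MRTFA by 0.73 (adjusted p = 7.7e-07) and SVIL, which links actin and myosin to the membrane, by 0.72 (adjusted p = 1e-05). From 6 h to 24 h in TIGK 14 of the 80 rose, a share near the 17.8% of all genes, and 29 fell, where 18.9% of all genes fell. Among those with at least 10 CPM in a group, the largest falls were those of CSRP1 (-1.03, adjusted p = 2.6e-11), FHL2 (-0.69), PDLIM7 (-0.68) and the main myosin II heavy chain MYH9 (-0.68), and MYL12A (0.54) and PPP1CB (0.50) were among those that rose.

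SRF and its cofactors did not follow one pattern. SRF stood at 78.2 ± 6.98, 77.0 ± 4.97 and 101 ± 6.51 CPM in HaCaT and at 95.4 ± 5.84, 87.9 ± 9.80 and 85.7 ± 1.38 CPM in TIGK at 0, 6 and 24 h. It rose in HaCaT by 24 h (log2 fold change 0.37, adjusted p = 0.0022), and the 24 h response was lower in TIGK by -0.52 (adjusted p = 0.0055). MRTFA stood at 54.8 ± 1.65, 51.6 ± 3.23 and 51.6 ± 4.20 CPM in HaCaT and at 56.6 ± 1.53, 77.2 ± 4.33 and 93.6 ± 11.3 CPM in TIGK. Its response was higher in TIGK than in HaCaT at 6 h (difference 0.54, adjusted p = 0.045) and at 24 h (0.81, adjusted p = 7.5e-05). MRTFB was not called in any response. The other gene of the lists whose 6 h response differed between lines was TES, a zyxin-binding LIM protein (0.53, adjusted p = 0.024), where 0.534% of all genes were called in that direction. At 24 h the response was higher in TIGK for 17 of the 80, led by LIMA1 (1.12, adjusted p = 4.5e-08), and lower for 9, led by RND3 (-1.20, adjusted p = 8.9e-07), where 6.45% of all genes were higher and 7.07% lower. ACTG1 (0.73, adjusted p = 7.1e-05) and ACTB (0.45, adjusted p = 0.0041) were among the 17, in the direction of ACTN1 and MYL9.

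**Figure D4:**
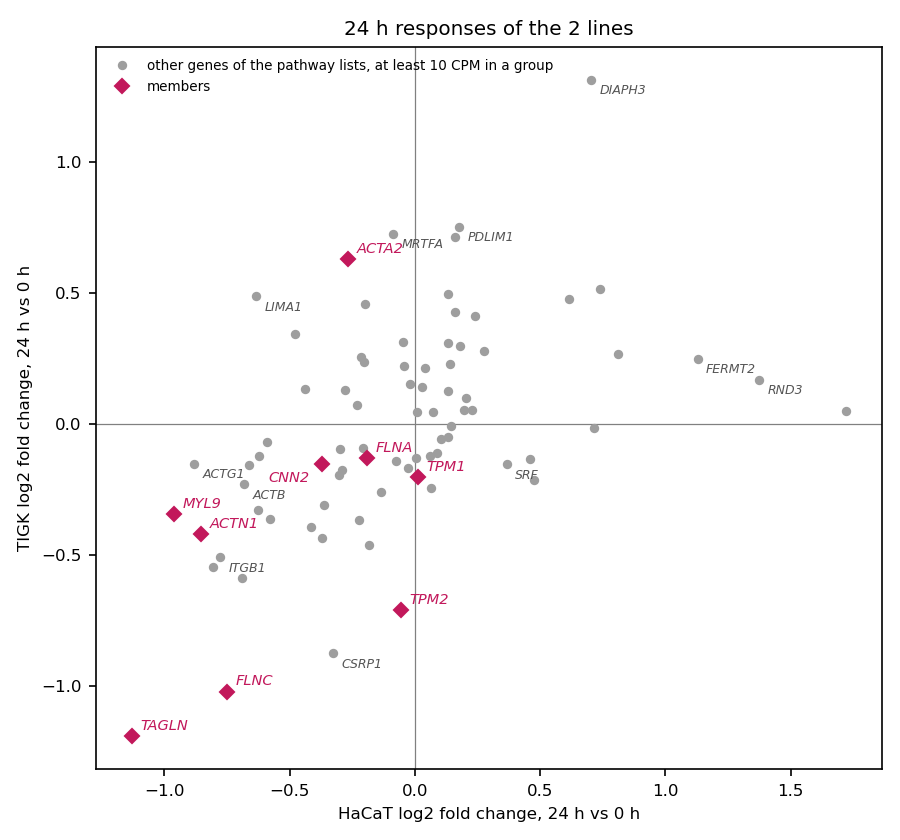
Log2 fold change at 24 h against 0 h in HaCaT (x axis) and TIGK (y axis). Diamonds are the 9 members and grey points are genes of the pathway lists with at least 10 CPM in a group, some of them named. TAGLN lies at -1.13 and -1.19, TPM2 near 0 in HaCaT and at -0.71 in TIGK, and RND3 at 1.37 in HaCaT.

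Between the lines the related genes outside the 9 members were tested, on lists also drawn up with earlier results known. At 0 h 28 of the 80 were higher and 30 lower in HaCaT, where 29.3% of all genes were higher and 33.3% lower. At 6 h 21 were higher and 30 lower (all genes 29.8% and 32.8%), and at 24 h 29 were higher and 34 lower (28.6% and 33.1%). The genes counted as lower include FHL1, ACTN2, ACTG2, CNN1 and ARHGAP24, which had few or no reads in HaCaT at 0 h. They passed the filter on low counts through TIGK, so their calls are a description only. The genes lower in HaCaT at 0 h with the largest folds were FHL1, a LIM protein of muscle (0.169 against 26.1 CPM, log2 fold change -7.22, on 5, 3 and 0 HaCaT reads), TLN2, a talin (-3.19, adjusted p = 2e-15), MYH10, a myosin II heavy chain (-2.58, adjusted p = 3.5e-18), and RHOB (-2.20, adjusted p = 6.7e-15). Those higher in HaCaT were SVIL (2.77, adjusted p = 4.4e-17), VASP, an actin polymerisation factor (1.94, adjusted p = 2.4e-16), MYH14 (1.58, adjusted p = 1.5e-13) and FERMT1, the kindlin of epithelia (1.24, adjusted p = 4.5e-13). SVIL, VASP and MYH14 were again among the 4 largest at 6 h and 24 h, as were FHL1, TLN2 and MYH10 on the lower side. At 24 h PPP1R12B, a myosin phosphatase subunit, was higher in HaCaT (1.06) and CNN3 lower (-1.52).

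The pattern of FLNC over the 18 libraries was most like that of MCM4 (Pearson r of log2(CPM + 0.5) 0.994), IKZF3 (0.994) and TNFRSF8 (0.992), among 9463 genes with a mean of at least 10 CPM. MCM4, a helicase subunit of DNA replication, stood at 262, 265 and 257 CPM in HaCaT and 813, 860 and 657 CPM in TIGK at 0, 6 and 24 h. IKZF3 had 0 CPM in all HaCaT groups and 24.7, 29.7 and 15.0 CPM in TIGK. For TAGLN the closest were COPRS (0.961), RPUSD1 (0.953) and SURF6 (0.948), all lower at 24 h in both lines, and for ACTA2 they were SLC35F5 (0.969), AKAP8L (0.968) and OSBPL9 (0.962). These libraries share line and time, so r mainly reflects group differences and is given as a description.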

How the data were processed

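RNA of 18 libraries, 3 for each line and time, was measured by sequencing. The authors deposited whole-number read counts per gene and FPKM values (scaled by sequencing depth and gene length). Per the submitters' processing notes, build hg38 was used with featureCounts 1.5.0-p3, StringTie 1.3.3b and HISAT2 2.0.5, with no role given for each. The authors' 10 comparison tables were not used.

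The count test was that of edgeR 4.0.16 under R 4.3.3 (filterByExpr, TMM, quasi-likelihood fit of 6 group means to all 18 libraries, 12 residual degrees of freedom, two-sided, Benjamini-Hochberg over 17409 genes). Fold changes used a prior count of 0.125. The SE is the log2 fold change divided by the square root of F. The procedure was tested on simulated data. Alternatives were DESeq2 1.42.0, RLE scaling, no filter, limma 3.58.1 on log2(FPKM + 1) or + 0.1, a block by letter, fits of the groups compared alone, and fits without single libraries or without both TIGK letter C libraries that stand apart. The precision of low genes is set by their counts. No label says that replicates were separate cultures, so the spread behind each p-value is that of these libraries and may be technical only.

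The members and lists were chosen with earlier results of these data known. All members were named, with the nearest paralogs (1 of them is not reported here), SRF, MRTFA and MRTFB, and in each comparison up to 4 called list genes each way with the largest fold change and at least 10 CPM in a group. Genes such as VCL, ZYX and CNN1 are named as list members beside these. Column letters were not tied to replicate numbers. In HaCaT 1 of 9 and in TIGK 6 of 9 same-letter pairs had correlated deviations over 0.1. Between 0 h and 6 h in TIGK all 3 did (0.359 to 0.755), which meets the mark for pairing, and in the other comparisons not all did. Between those times in TIGK the unlike letters A and B were also over 0.1 (0.302 and 0.242). The letter C libraries of both times stand apart, so the mark cannot show that the letters are pairs. The tests carry no block, and blocked values stand beside the member results whose call they change.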

Additional observations from a re-analysis of the deposited data

Results flagged for a closer look

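The 24 h response of 3 members differed between the lines by the interaction test of edgeR. For ACTN1 the difference, TIGK minus HaCaT on the log2 scale, was 0.43 (adjusted p = 0.0032), with a fall in every 24 h library of both lines below those of 0 h. For TPM2 it was -0.66 (adjusted p = 0.036), with a fall in TIGK only among the called responses, and 5 of 12 fits without 1 library kept the call. For MYL9 it was 0.62 (adjusted p = 0.049), with the larger fall in HaCaT, and 4 of 12 such fits kept the call. For ACTN1 12 of 12 kept it.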

How the results depend on the processing

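Over the alternatives, 0 of the called responses of members changed direction. They lost the call in 13 fits with another tool, scaling or set of groups and in 25 fits without 1 library, and kept it in 219 and 167. The counts of called genes that follow come from alternative fits, for which no share of all genes is given. They have no background beside them and describe only how the calls depend on the fit. The replicate block by letter called 1 member for the line difference at 6 h, 4 in TIGK at 6 h and 6 in TIGK at 24 h. For the members' line difference at 6 h, with 0 called, DESeq2 and limma on log2(FPKM + 1) called 2, and RLE scaling, no filter, the groups alone and leaving out both TIGK letter C libraries called 1 each, with 0 to 1 when 1 library was left out. For the line difference at 24 h, with 3 called, limma on log2(FPKM + 0.1) and the fit without both letter C libraries called 1, limma on log2(FPKM + 1) called 4 (with FLNC, -0.93, and ACTA2, 0.39, adjusted p = 0.033, and without MYL9), and fits without 1 library called 1 to 2. For the related genes in HaCaT at 6 h, with 0 called, DESeq2, no filter, the block and HaCaT alone called 2, the fit without both letter C libraries 1, and fits without 1 library 0 to 1. In TIGK at 6 h, with 14 called, TIGK alone called 9 and fits without 1 library 7 to 17 (8 without the letter A library of 0 h, 7 without the letter B library of 6 h). Without both letter C libraries the TAGLN line difference at 24 h was 0.043, and its range without 1 library was -0.189 to 0.0608. Other uncalled values changed sign without 1 library: in HaCaT at 6 h FLNC (-0.11 to 0.43), MYL9 (-0.212 to 0.0978) and CNN2 (-0.0495 to 0.0198), in HaCaT at 24 h against 0 h TPM1 (-0.0771 to 0.0710) and TPM2 (-0.223 to 0.0721), against 6 h TPM1 (-0.0114 to 0.137) and TPM2 (-0.0139 to 0.202), in TIGK at 6 h TPM2 (-0.0579 to 0.160), and the FLNC line difference at 24 h (-0.72 to 0.57). The cause was not tested. FLNC and ACTA2 in HaCaT are limited by counting few reads.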
